A study of Mus musculus with 2 samples.

Results

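Pou5f1, Sox2 and Nanog encode OCT4, SOX2 and NANOG, the transcription factors at the core of the pluripotency network, and the chromatin around these genes is described here from the open-chromatin peaks of mouse embryonic stem cells (mESCs). The 3 genes were taken by name from the 21938 protein-coding genes of the GENCODE annotation of mm10. The peaks described are those over each gene start and all others within 50 kb of either end of the gene, which are 42 of the 116777 peaks on chromosomes 1 to 19, X and Y. Of these, 16 lie around Pou5f1, 12 around Sox2 and 14 around Nanog.

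The open chromatin was measured by ATAC-seq, a method in which Tn5 transposase inserts sequencing adapters into accessible DNA. The cells were hybrid C57BL/6J and 129S1 mESCs. Every copy of the endogenous Ehmt2 gene fuses the histone methyltransferase EHMT2 to a dTAG degron and hemagglutinin tags. The allele also encodes mCherry as a reporter of Ehmt2 transcription. Both samples had been given only DMSO, the solvent of the degrader, for 24 h, which leaves EHMT2 in place, and each was 50000 cells of a separate clone. The lines were grown in serum with LIF on mouse embryonic fibroblast feeders that had been stopped from dividing. The authors called 1 peak list on both clones merged. The list thus holds 1 condition and no replicate values, nothing was tested between samples, and all values below are descriptive.

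OCT4 carries a POU domain, binds the octamer and pairs with the HMG box protein SOX2 on adjoining sites, and NANOG is a homeodomain factor that occupies many of the same enhancers. The factors regulate their own and each other's genes in mESCs, and each gene has well-studied enhancers outside its promoter. Pou5f1 has a distal enhancer a short way upstream that is used in the naive state, and Sox2 depends in mESCs on a remote downstream element called the Sox2 control region.

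Each peak is described by the number of fragments over its summit, which was calculated back from the deposited fold enrichment and p-value, by the local background that the peak caller MACS2 set for it, and by the fold enrichment, the ratio of both after adding 1 to each. Brackets give the exact Poisson 95% interval of the fragment number. It covers counting error only, neither the spread between clones nor unequal PCR amplification. The median peak of the list had 9 fragments, with quartiles of 7 and 17, so small differences between peaks are not detectable at this depth.

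The start of Pou5f1 (ENSMUSG00000024406.16, plus strand, chr17:35506018-35510772) lay under a peak of 535 bp, chr17:35505742-35506276, with its summit 63 bp into the first exon. This peak had 17 fragments (9.90 to 27.2) over a background of 5.36 and a fold enrichment of 2.83. The start of Nanog (ENSMUSG00000012396.12, plus strand, chr6:122707489-122714633) lay under a peak of 620 bp, chr6:122707109-122707728, with its summit 187 bp upstream of the start. It had 40 fragments (28.6 to 54.5) over a background of 8.94 and a fold enrichment of 4.12. The starts of all 3 annotated Nanog transcripts lay under this peak, against 1 of the 6 Pou5f1 transcript starts.

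The start of Sox2 (ENSMUSG00000074637.7, plus strand, chr3:34650405-34652461) was not covered by a peak in the GENCODE annotation. It fell into a gap of 355 bp, 226 bp after the last base of one peak and 130 bp before the first base of the next. RefSeq places the start of Sox2 410 bp farther upstream, at position 34649995, and this start lay 5 bp from the summit of the upstream peak, chr3:34648757-34650179. That peak was 1423 bp wide and had 42 fragments (30.3 to 56.8) over a background of 7.24, with a fold enrichment of 5.22. The next peak, chr3:34650535-34650920, lay in the single exon of Sox2 and had 17 fragments (9.90 to 27.2) over a background of 7.28. Its fold enrichment of 2.17 was the lowest of the 42 peaks. By the GENCODE start, 2 of the 3 genes therefore had a peak over the start, and by the RefSeq start 3 of 3. Of all protein-coding gene starts of GENCODE, 59.2% were covered, and the share of RefSeq starts was not calculated. A summit lay within 500 bp of the GENCODE start for 3 of 3 genes, against 57.4% of all. Among the start peaks, that of Pou5f1 had the fewest fragments and its interval did not overlap those of Sox2 and Nanog, whose intervals overlapped widely.

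The 200 bases upstream of each start are shown because they carry the promoter that these peaks lie on. They are from GRCm38 and on the plus strand, on which all 3 genes are read, and capitals mark matches of the motifs described further on. For Pou5f1 the stretch is chr17:35505818-35506017, for Sox2 it is chr3:34649795-34649994, which ends just before the RefSeq start, and for Nanog it is chr6:122707289-122707488.
Pou5f1: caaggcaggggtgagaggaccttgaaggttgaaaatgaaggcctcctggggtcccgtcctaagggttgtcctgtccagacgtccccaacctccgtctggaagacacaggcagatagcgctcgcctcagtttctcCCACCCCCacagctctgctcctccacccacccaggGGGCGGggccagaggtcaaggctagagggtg
Sox2: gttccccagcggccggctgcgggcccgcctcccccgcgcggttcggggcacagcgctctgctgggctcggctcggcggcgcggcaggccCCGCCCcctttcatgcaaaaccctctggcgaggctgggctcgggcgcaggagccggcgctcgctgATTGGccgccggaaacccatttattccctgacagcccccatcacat
Nanog: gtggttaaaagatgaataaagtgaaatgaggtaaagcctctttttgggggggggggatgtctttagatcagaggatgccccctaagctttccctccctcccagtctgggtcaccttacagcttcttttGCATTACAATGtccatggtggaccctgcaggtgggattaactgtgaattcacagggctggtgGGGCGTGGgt
The Pou5f1 stretch holds a KLF match and a GC box, the Sox2 stretch a GC box and the letters bound by NF-Y, and the Nanog stretch a SOX-POU pair that shares bases with a SOX match, followed by a KLF match.

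The start peaks of the 3 genes were not high for peaks at gene starts. Over the 12990 protein-coding genes with a peak over the start, the start peak had a median of 34 fragments with quartiles of 20 and 55, a median fold enrichment of 8.68 and a median background of 2.96. Sox2 was ranked by its peak over the RefSeq start, while these 12990 genes were covered at the GENCODE start. Fewer fragments than at Pou5f1 were found at 18.7% of these genes, fewer than at Sox2 at 61.4% and fewer than at Nanog at 58.6%. In fragments, Sox2 and Nanog thus stood above the median gene start and Pou5f1 below the first quartile. The intervals of Sox2 and Nanog include the median of 34, and that of Pou5f1 the first quartile of 20, so these positions are not resolved. By fold enrichment the 3 genes stood far lower. The start peaks of only 50 of the 12990 genes, or 0.385%, were below Pou5f1, 7.19% below Nanog and 16.6% below Sox2. A peak over the starts of several genes counts once for each gene in these ranks. The background of the start peak was lower at 85.5% of the genes for Pou5f1, at 94.6% for Sox2 and at 97.8% for Nanog. MACS2 sets this background from the fragments of the surrounding region. Counting the start peak itself, 4, 7 and 3 peaks had their summits within 10 kb of the Pou5f1, Sox2 and Nanog starts. The part of the neighbouring peaks in the background was not tested. The start peaks of Pou5f1 and Nanog were narrow, with 4.59% and 8.03% of start peaks narrower, and that of Sox2 was wide, with 80.0% narrower.

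**Figure D1:**
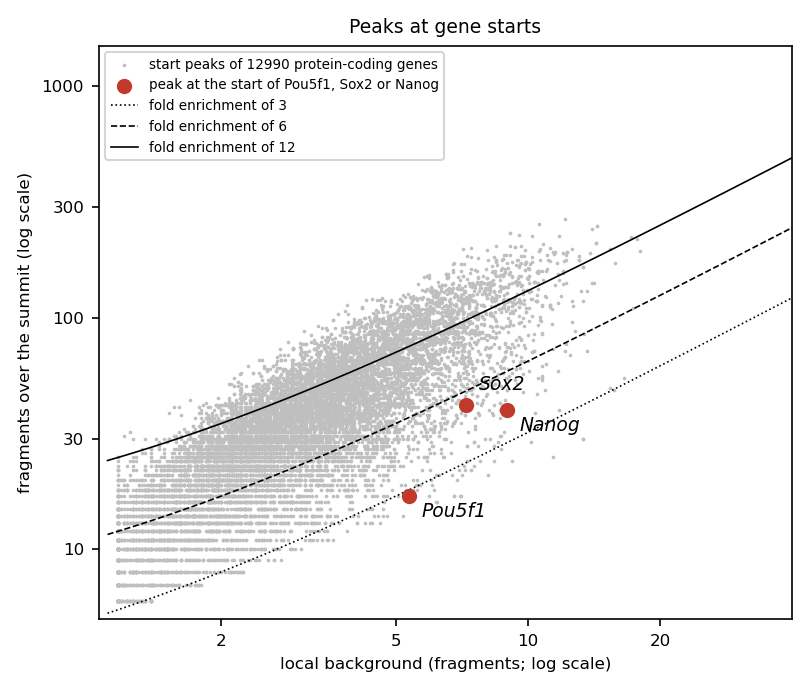
Fragments over the summit (log scale) against the local background (log scale) for the start peaks of 12990 protein-coding genes (grey) and for the peaks at the starts of Pou5f1, Sox2 (RefSeq start) and Nanog (red). Lines mark constant fold enrichment. The 3 genes lie to the right of most points, at backgrounds of 5.36 to 8.94, and below the line for a fold of 6, with Pou5f1 just below the line for 3.

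Around Pou5f1, the nearest peaks on either side had more fragments than the one over the start, with overlapping intervals. A peak of 1568 bp upstream, chr17:35503681-35505248, had its summit 1.93 kb before the start and 30 fragments (20.2 to 42.8) over a background of 4.88, with a fold enrichment of 5.27. This is 1.76 times the number at the start. A peak in an intron of Pou5f1, chr17:35509463-35509794, 3.58 kb after the start, had 25 fragments (16.2 to 36.9). The antisense gene Gm19553 overlaps this intron, and its own start was not covered. The highest peak of the window, with 51 fragments (38.0 to 67.1) and a fold enrichment of 11, lay 11029 bp downstream over the starts of Tcf19 and Cchcr1, which point away from each other. The other 12 peaks were small, with 6 to 15 fragments, and 9 of the 16 had under 10. The strongest of them by both measures lay 28.6 kb downstream, with 15 fragments (8.40 to 24.7) and a fold enrichment of 6.30. The starts of H2-Q10, a class I histocompatibility gene, and of Psors1c2 and Cdsn were not covered, and that of H2-Q10 lay 68 bp from a peak with 11 fragments.

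The reference sequence around the summit of the upstream Pou5f1 peak, chr17:35504016-35504166, is shown because a SOX-POU pair, in capitals, lies 34 bp from the summit.
Pou5f1 upstream peak: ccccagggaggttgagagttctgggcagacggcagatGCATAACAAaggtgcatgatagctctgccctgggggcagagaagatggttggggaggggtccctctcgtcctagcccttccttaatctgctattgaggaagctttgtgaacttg

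Around Sox2, the peaks were drawn close to the gene, with 11 of the 12 summits within 20 kb of the start and 96.4% of the fragments of all 12. The share within 20 kb was 61.4% for Pou5f1 and 50.6% for Nanog. Of the Sox2 peaks, 10 had their summit in an intron of Sox2ot, the long noncoding RNA gene that Sox2 lies within, 1 lay in the Sox2 exon and 1 between genes. After the peak over the RefSeq start, the highest was 18.3 kb downstream, chr3:34668164-34668870, with 36 fragments (25.2 to 49.8) over a background of 4.62. Its fold enrichment of 6.58 was the highest of the window. Peaks 14.1 kb and 3.39 kb downstream followed with 28 (18.6 to 40.5) and 27 fragments (17.8 to 39.3), and a peak 2.38 kb upstream with 21 (13.0 to 32.1). The intervals of these peaks overlap, so their order is not resolved. The remaining 6 peaks outside the exon had 9 to 18 fragments. No other protein-coding gene record starts within 50 kb of Sox2. Of the noncoding starts there, that of Gm42693 was under the peak 14.1 kb downstream, and those of Gm42205, RF01953, Mir1897, Gm42692, Gm27611 and Gm43206 were not covered.

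The sequences around the summit of the peak 18.3 kb downstream of Sox2, chr3:34668615-34668765, and around a SOX-POU pair in the peak 3.39 kb downstream, chr3:34653980-34654130, are given because these are the highest peak away from both annotated starts and the one peak of the Sox2 window with that pair.
Sox2 18.3 kb downstream: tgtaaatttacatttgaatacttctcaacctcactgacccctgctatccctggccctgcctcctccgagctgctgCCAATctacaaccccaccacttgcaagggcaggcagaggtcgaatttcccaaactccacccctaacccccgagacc
Sox2 3.39 kb downstream: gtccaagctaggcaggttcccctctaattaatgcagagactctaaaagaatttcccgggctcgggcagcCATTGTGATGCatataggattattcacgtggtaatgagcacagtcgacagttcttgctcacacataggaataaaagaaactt

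Around Nanog, the highest of all 42 peaks lay 4.76 kb upstream of the start, chr6:122702202-122703327, between genes. It had 102 fragments (83.2 to 124) over a background of 9.16 and a fold enrichment of 10.1. The number was 2.55 times that at the Nanog start, and the intervals did not overlap. Of all peaks in the list, 99.3% had fewer fragments. The next highest were 54 fragments (40.6 to 70.5) in an intron of the glucose transporter gene Slc2a3, 57.4 kb downstream, and 43 (31.1 to 57.9) over a transcript start of Slc2a3, 35.2 kb downstream. Of the peaks between genes, those 8.66 kb downstream and 37.8 and 44.3 kb upstream had 34 (23.5 to 47.5), 29 (19.4 to 41.6) and 24 fragments (15.4 to 35.7), the second with a background of 2.38 and a fold enrichment of 8.88. The other 7 peaks had 9 to 17 fragments. Apart from that Slc2a3 transcript, whose gene record starts farther away, no protein-coding gene record starts within 50 kb of Nanog, and the starts of the processed pseudogenes Gm10420 and Gm10224 had no peak. Nanog was the gene of the 3 with the most fragments in its window, 419 summed over the summits, against 250 for Sox2 and 223 for Pou5f1.

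The sequence around the summit of the upstream Nanog peak, chr6:122702651-122702801, is shown because this is the highest peak of the 3 windows. None of the searched motifs lies in it.
Nanog upstream peak: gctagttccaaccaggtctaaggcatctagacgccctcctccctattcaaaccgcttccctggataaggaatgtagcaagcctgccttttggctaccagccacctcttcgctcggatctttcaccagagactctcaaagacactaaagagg

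**Figure D2:**
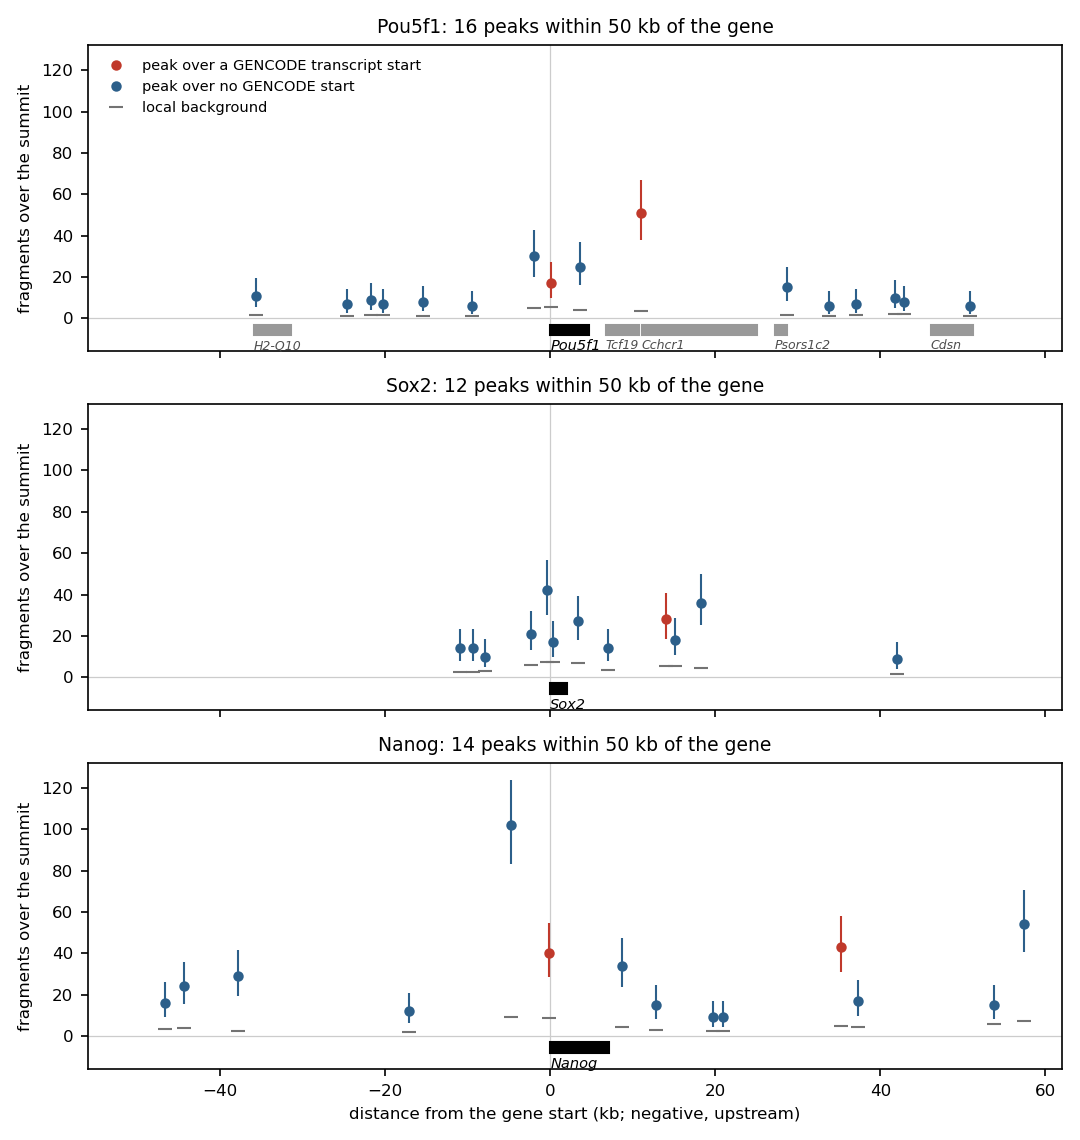
Fragments over the summit of each peak against the distance of the summit from the GENCODE gene start, in kb, around Pou5f1, Sox2 and Nanog. Vertical lines are exact Poisson 95% intervals, grey dashes the local background, black bars the gene and grey bars other protein-coding genes whose record starts within 50 kb. The peak 4.76 kb upstream of Nanog reaches 102 fragments, the Pou5f1 start peak has fewer fragments than its neighbours on either side, with overlapping intervals, and the Sox2 peaks gather within 20 kb. The peak at 42 fragments beside the Sox2 start, which covers the RefSeq start, is drawn in blue as it covers no GENCODE start.

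The windows held more peaks than those of most genes. Among the windows of all 21938 protein-coding genes, the median held 8 peaks, with quartiles of 5 and 12, and fewer than the 16 of Pou5f1 were found for 89.5%, fewer than the 14 of Nanog for 83.0% and fewer than the 12 of Sox2 for 72.7%. Peaks covered 9.91% of the bases around Pou5f1, 7.66% around Sox2 and 10.1% around Nanog, against a median of 4.41%. The contrast was larger for peaks that cover no GENCODE transcript start, of which the median window held 5 with 61 fragments in sum. Pou5f1 had 14 such peaks with 155 fragments, Sox2 11 with 222 and Nanog 12 with 336. The sum was smaller for 87.5%, 94.9% and 98.5% of genes, in this order. The count, sum and rank of Sox2 include the peak over the RefSeq start, with 42 fragments. For the highest such peak of a window, 99.5% of genes had fewer fragments than Nanog. The 42 of Sox2 exceeded 85.2%, but this is the peak over the RefSeq start, and the 30 of Pou5f1 exceeded 72.3%, where the median was 19. The q-value is the p-value adjusted by MACS2 over the genome. A −log10 q-value of at least 10 was reached by 2 peaks at Pou5f1, 2 at Sox2 and 6 at Nanog, 10 of 42 in all, a share near the 22.2% of all peaks.

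Farther out, the windows differed in what lay beyond 50 kb, and these peaks were chosen for description after their values had been seen. Between 50 and 150 kb downstream of Sox2, 12 peaks were found, none of them over a transcript start, and 6 had at least 20 fragments. A group of 4 lay 106, 108, 110 and 111 kb from the start with 30, 52, 38 and 61 fragments over backgrounds of 9.0 to 9.54. The last of these, chr3:34761183-34761690, had 61 fragments (46.7 to 78.4) and a fold enrichment of 6.14. The peak over the RefSeq start of Sox2 had fewer fragments, 42, with an overlapping interval. Of all peaks without a start, 99.2% had fewer fragments than the one at 111 kb. A single peak with 9 fragments lay in the same span upstream. The Sox2 control region is known to lie in this downstream flank, and no deposited value here assigns the peaks to it. Around Pou5f1, 10 peaks lay on each side in this span, and those without a start had at most 12 fragments upstream and 15 downstream. Around Nanog, 17 peaks lay upstream, among them 2 without a start that had 68 (52.8 to 86.2) and 67 fragments (51.9 to 85.1), 82.8 and 98.8 kb away. The first lies beside Dppa3, a maternal-effect gene that marks naive cells, and the second within Gdf3, which encodes a TGF-beta family ligand. Downstream of Nanog, a peak over the start of Gm5112, 104 kb away, had 133 fragments (111 to 158).

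**Figure D3:**
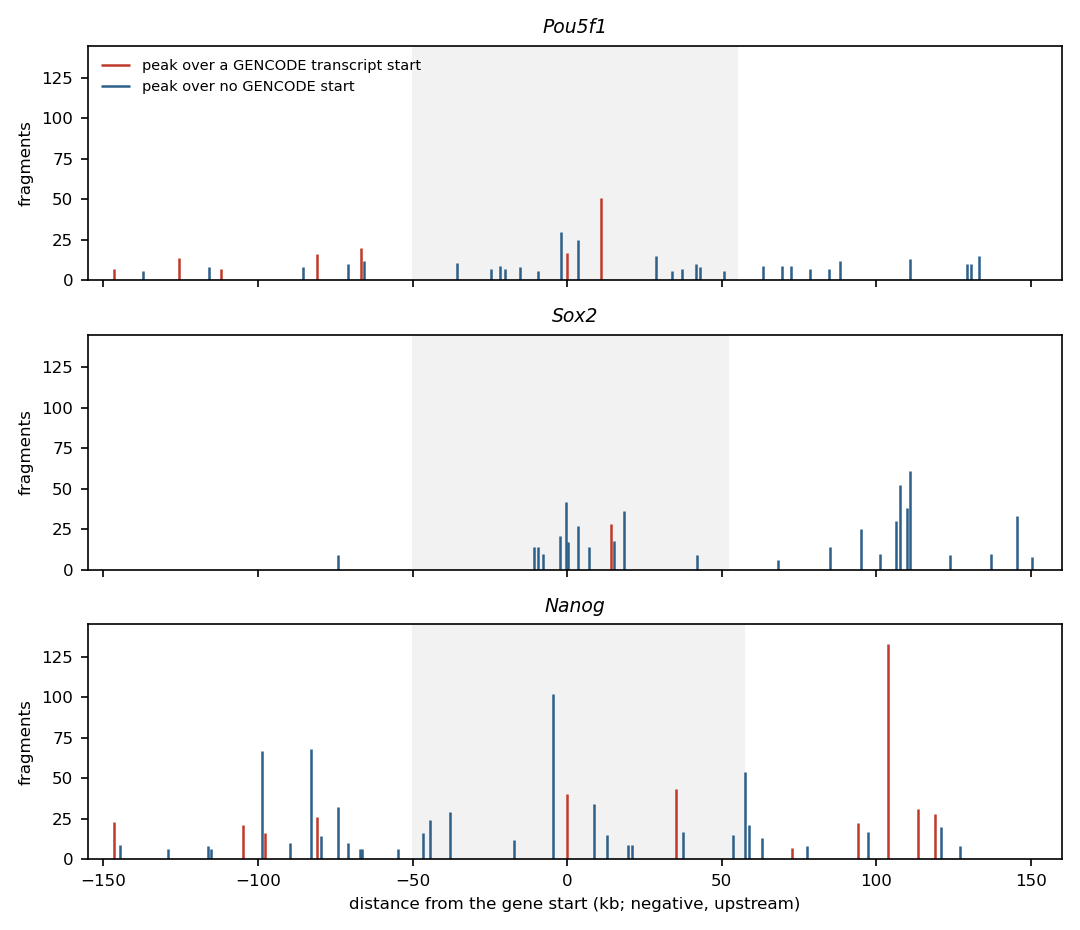
Fragments over the summit of each peak within 150 kb of Pou5f1, Sox2 and Nanog, against the distance from the GENCODE gene start in kb. The shaded band is the window of 50 kb. The Sox2 panel shows 4 peaks of 30 to 61 fragments at 106 to 111 kb downstream and a near-empty upstream flank, and the Pou5f1 flanks hold only low peaks.

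The highest peak of that downstream group is shown by the sequence around its summit, chr3:34761316-34761466, in which none of the searched motifs lies.
Sox2 111 kb downstream: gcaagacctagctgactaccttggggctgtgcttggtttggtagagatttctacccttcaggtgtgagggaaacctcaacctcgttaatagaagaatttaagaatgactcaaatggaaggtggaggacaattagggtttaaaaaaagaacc

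The reference sequence from 150 bp before to 150 bp after each summit was searched on both strands for 8 motifs, and a match describes letters, not binding. The SOX-POU pair TTGTNATGC, the letters of a SOX site joined to the start of a POU site, was found in 2 of the 42 windows, against 1.55% of all peaks and 0.731% of 32851 RefSeq promoters of nearly the same length. Over the whole length of the peaks, it was found in 3 of 42, once for each gene, against 2839 of 116777 or 2.43% of all peaks. At Pou5f1 it read GCATAACAA 1965 bp upstream of the start, chr17:35504053-35504061. At Sox2 it read TTGTGATGC 3646 bp downstream, chr3:34654051-34654059, which is 258 bp from the summit. At Nanog it read GCATTACAA 72 bp upstream, chr6:122707417-122707425, within the start peak. The octamer ATGCAAAT, the site of POU factors, was in 1 window (3.02% of all peaks, 1.74% of promoters), and the SOX site CATTGT, which can share letters with the pair, in 9 (14.6% and 12.6%). The KLF site GGGNGTGG was in 11 (14.8% and 17.6%), and the ESRRB site TCAAGGTCA in 1 (1.06% and 0.423%). The STAT site TTCNNNGAA was in 2 (8.77% and 8.30%), the GC box GGGCGG in 6 (19.4% and 35.7%) and CCAAT, the NF-Y site, in 21 (36.1% and 37.4%). With 42 windows these counts are small, and none was tested.

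Most of the windows around the 42 summits had no close second match in the genome. For 40 of them, no other stretch was at least 90% identical along 50% or more of the window. The exceptions were 2 low peaks upstream of Pou5f1. That at 24.6 kb, with 7 fragments, had 129 other matches, the best with 99.3% identity, and that at 9.47 kb, with 6 fragments, had 12250, the best with 96.3%. Of these matches, 32 were at least 98% identical for the first peak and 0 for the second. Reads matching several places equally well were put at 1 of them at random, and how many reads of these peaks did so was not tested.

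Other genes of the pluripotency network gave a wide range of start peaks. Of 25 listed genes, 19 had a peak over the start, 76.0% against 59.2% of all genes, with 13 to 151 fragments, a median of 37 and a median fold enrichment of 6.16. Zfp42, which encodes the naive marker REX1, had 151 fragments, Klf5, a Kruppel-like factor, 135, and Rif1, a regulator of replication timing, 84. The start peaks of Sox2 and Nanog, with 42 and 40, lay near the list median, and that of Pou5f1, with 17, above only Gdf3 with 16, Prdm14 with 15 and Lin28a with 13. The interval of Pou5f1, 9.9 to 27.2, also includes Tcl1 with 21, Dppa2 with 25 and Dppa3 with 26, so its position is not resolved. In fold enrichment, 1 gene of the list was below Pou5f1, namely Gdf3 with 2.36. Among those without a peak over the GENCODE start were the nuclear receptor genes Esrrb and Nr5a2. The zinc finger gene Sall4 and the ligand genes Fgf4 and Lefty1 also lacked one. The RefSeq starts of these genes were not examined. Peaks without a start within 50 kb reached 77 fragments at Esrrb, 59 at Lefty1, 42 at Nr5a2, 41 at Sall4 and 28 at Fgf4. Over all protein-coding genes, the highest such peak had a median of 19 with quartiles of 11 and 32, so Fgf4 lay between the quartiles. The window includes the gene and is thus wider at long genes. At Tfcp2l1, such peaks reached 115, the only value of the list above the 102 of Nanog.

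The families of the genes were covered as well. Of 14 other POU genes, 11 had a peak over the start, 78.6% against 59.2% of all protein-coding genes. These peaks had 8 to 72 fragments and a median of 27. Pou2f1, which encodes the broadly expressed OCT1, had 72 fragments, and Pou3f3 and Pou3f2, neural POU factors, had 52 and 50. Pou1f1 and Pou3f1 were among those without one. All 5 listed Sox relatives had one, with 56 fragments at Sox21, 36 at Sox1, 30 at Sox14, and 19 at both Sox3 and Sox15. The Pou5f1 start peak, with 17, thus had fewer fragments than most start peaks of its family, those of Pou3f3 and Pou3f2 among them. Pou3f4 had the same number, 17, and Pou2f2 and Pou6f1 had fewer, 14 and 8. Accessibility does not measure transcription, and no RNA was analysed here.

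The marker counts below are to be read against the 59.2% of all protein-coding gene starts that lay under a peak. Of 8 markers of pluripotent cells, 6 had a start peak, with only Sox2 and Esrrb lacking one by the GENCODE start. Of 12 fibroblast markers, listed because feeder cells can remain in such cultures, 4 had one, with 11 to 28 fragments and 63 in sum. These were Twist1 with 28, Twist2 and Pdgfrb with 12 each and Thy1 with 11, while the collagen genes Col1a1, Col1a2 and Col3a1 and Prrx1, Lum, Dcn, Postn and Fap had none. How far feeder cells added fragments to the peaks of the 3 genes was not tested. Trophectoderm markers had a start peak in 4 of 6, led by Eomes with 34, Gata3 with 27 and Tfap2c with 26, and lacked it at Elf5 and Krt7. Primitive endoderm markers had one in 2 of 6, Gata6 with 24 and Sox17 with 21, and lacked it at Gata4, Sox7, Foxa2 and Pdgfra. Neural progenitor markers had one in 5 of 6, led by Neurog2 with 51, Sox1 with 36 and Olig2 with 34, and lacked it at Hes5. Some genes of these lists without a start peak had a summit within 500 bp of the start. These were Sox2 with 42 fragments, Prrx1 with 15, Hes5 with 13 and Elf5 with 6. A peak over the gene start with 17 to 42 fragments was thus also seen at genes of other lineages. The share with a start peak was above 59.2% for the pluripotent, trophectoderm and neural lists and below it for the other lists. It was highest for the neural list. The lists are short, no share was tested, and the counts do not set pluripotent markers apart.

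**Figure D4:**
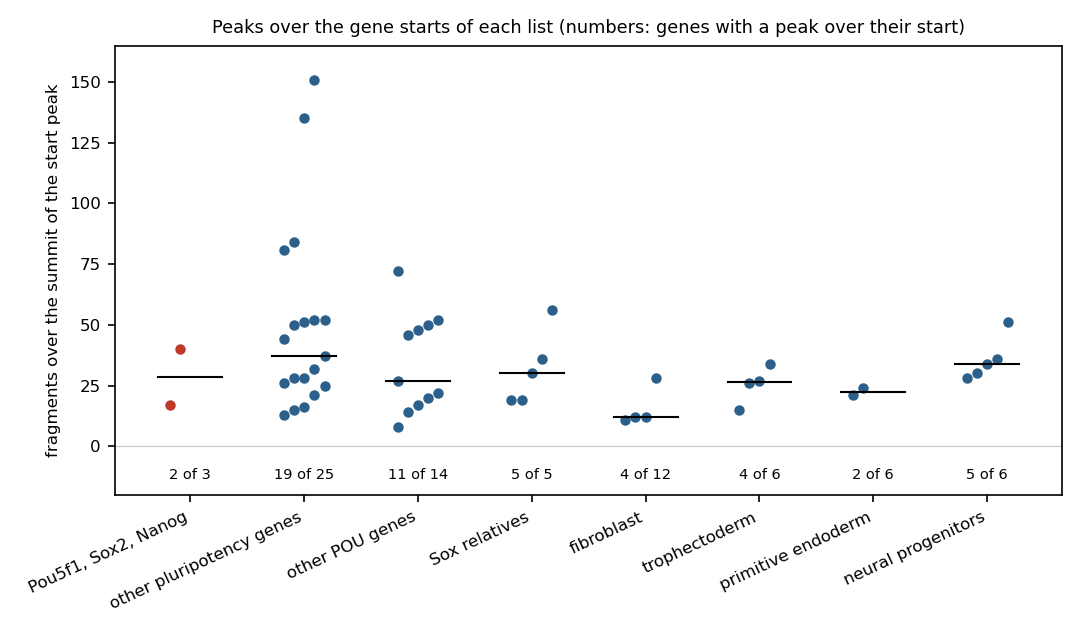
Fragments over the summit of the peak over the GENCODE start, 1 point per gene with such a peak, for the 3 genes (red) and the gene lists (blue). Black lines are medians, and the numbers below give the genes with a start peak of those listed. Pou5f1 with 17 and Nanog with 40 lie within the range of the other pluripotency genes, 13 to 151, and fibroblast markers have the fewest covered starts by share beside primitive endoderm markers.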

How the data were processed

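ATAC-seq was performed on 2 EHMT2-dTAG mESC clones treated with DMSO for 24 h. The authors used BBMap for trimming and STAR 2.7.10 for alignment to mm10, placing reads with several equal matches at random, removed duplicates with Picard 2.26.0 and reads in ENCODE High Signal Regions with SAMtools 1.14, converted alignments to fragments with bedtools 2.30.0, shifted these by +4 and −5 bp for the Tn5 cut, and called peaks with MACS2 2.2.6 on technical replicates and both clones merged. Per the study's methods no control library is named, so the background comes from the same library. The deposited fold enrichment is a ratio to this background with 1 added to both, and the p-values and q-values, deposited as −log10, belong to the summit. The deposited score was not used.

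Library totals were not analysed here. Left out of the 116782 peaks were 3 of mitochondrial DNA and 2 of another organism's sequence. Fragment number and background were solved from fold and p-value by the Poisson formula of MACS2. The number was whole, within 0.05% of the −log10 p-value or 0.001, for 116778 peaks and for all 42 described here. On 19742 simulated peaks, 100% were recovered. Intervals are exact Poisson intervals at 95%. Positions count from 1.

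Genes came from GENCODE vM21, an earlier release than the study used, and from RefSeq GRCm38.p6, which also gave the sequences and promoters (250 bp before to 50 bp after a start). BLAST 2.17.0, Python 3.11.15, NumPy 2.4.6, pandas 2.3.3, SciPy 1.17.1 and matplotlib 3.10.9 were used. The genes, lists, motifs and tests were chosen with earlier results of these data known. Named were the 3 genes, all genes starting within 50 kb and, of each list, the 3 with most fragments and all without a start peak. Other genes were named after their values were seen, and 2 listed genes enter the counts but are not reported here by themselves. Alternatives were a q-value limit of 10 on the −log10 scale, other windows and start rules, ranks by fragments or among all peaks, and motif windows of 50 bp.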

Additional observations from a re-analysis of the deposited data

How the results depend on the processing

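The merged list has no replicate values, so neither clone could be left out and no spread between clones is known. No paired analysis was possible because the list pools both clones and comes from no test. Of 48 alternatives, 22 left a count or share within 1.5 times of the reported one or, for a fragment number or a rank, within its 95% interval. With q-values limited to 10 or more on the −log10 scale, 1 of the 3 gene starts was covered, 2, 2 and 6 peaks remained at Pou5f1, Sox2 and Nanog, and 2.42%, 2.09% and 5.78% of bases were in peaks. Windows of 25 kb held 10 peaks at Pou5f1 and 7 at Nanog and covered 13.3% at Sox2. Windows of 100 kb held 27 at Pou5f1 and 32 at Nanog. The strongest peak away from GENCODE starts had 15 fragments at Pou5f1 when chosen by fold and 61 at Sox2 within 150 kb. Ranked by fragments, 18.7% and 58.6% of start peaks were below Pou5f1 and Nanog, and among all peaks ranked by fold 1.22% and 51.8%. Nanog thus turned from below to above the median under both, although its fragment interval includes the median of the start peaks. Within 50 bp of the summit, the octamer was found in 0 windows, the SOX site in 3, the pair in 1, the KLF site in 2, the ESRRB site in 0, the STAT site in 0, the GC box in 2 and the NF-Y site in 8, a shorter stretch by construction. The RefSeq start, with 3 of 3 starts covered, and the search of whole peaks for the pair, with 3 peaks, were chosen after seeing the data.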
